A study of Mus musculus with 9 samples.

Results

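Collagens, laminins and integrins were described in mouse ESCs before and after expression of a forced E2A homodimer. The members were found by name among the protein-coding genes of the FPKM table: Col followed by a type number, the letter a and a chain number, Lama, Lamb or Lamc followed by a chain number, and Itga or Itgb followed by a subunit name. This name rule used no measured value, but the families were chosen with earlier results of these data known. This gave 82 genes of 47729 in the table, of which 22048 are protein-coding: 44 collagen genes, 11 laminin genes and 27 integrin genes. They carry 81 symbols, because Itgam stands under 2 gene identifiers. All 9 libraries came from ESCs that carry a transgene switched on by doxycycline (dox). It encodes 2 copies of the E2A protein E47 joined by a flexible linker, the forced homodimer, and all cells were kept in LIF/serum. The 3 libraries at 0 h came from cells without dox, and the 3 at 18 h and 3 at 24 h from cells given dox at 1 µg/ml. Every group thus carried the transgene, and a line that received dox without it was not analysed here, so a response to dox and a response to the homodimer cannot be told apart. No library came from cells kept without dox to 18 h or 24 h, so a change with time in culture cannot be separated from these. The study describes its replicates as 3 biological experiments. Whether the line is a single clone is not given in the sources used here. In RNA from whole cultures, a change in the number of cells of one kind and a change in RNA per cell cannot be told apart either.

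Collagens are built from alpha chains that wind into a triple helix. Fibrillar types form the cables of connective tissue, and type IV forms the sheet-like network of basement membranes, the thin matrix under epithelia. Laminins are trimers of an alpha, a beta and a gamma chain and make up the other network of basement membranes, to which nidogens, perlecan and agrin bind. Integrins are receptors made of an alpha and a beta subunit that join this matrix to the actin cytoskeleton. The alpha subunits of Itga3, Itga6 and Itga7 bind laminins, those of Itga1, Itga2, Itga10 and Itga11 bind collagens, those of Itga5, Itga8, Itgav and Itga2b bind ligands with the RGD tripeptide, and several others are found on leukocytes. Mouse ESCs are known to make laminin and type IV collagen and to hold to their substrate through integrins with the Itgb1 subunit.

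Between 22028363 and 26471569 reads per library could be counted on genes. Tcf3, which encodes E2A and to which reads of the transgene can be assigned, measured 41.2, 37.7 and 38.5 FPKM (0 h), 116, 107 and 107 (18 h) and 104, 93.6 and 108 (24 h). Its log2 fold-change was 1.49 by 18 h and 1.38 by 24 h (adjusted p = 2.37e-05 and 3.11e-05 by limma). The label of ESCs was checked with 8 pluripotency genes, all of them measured at each time, whose summed level was 1299 to 1975 FPKM at 0 h, 1018 to 1614 at 18 h and 974 to 1586 at 24 h. Of these 8 genes, Tdgf1 was downregulated at both times. By the adjusted p alone, 0 were higher and 1 was lower at 18 h, and 1 was higher and 2 were lower at 24 h. Replicate 1 was the highest of its time in all 8 of these genes at all 3 times. Among markers of extraembryonic endoderm, whose cells lay down thick basement membranes, the summed level of 12 genes was 5.88 to 6.37 FPKM at 0 h, 5.0 to 5.47 at 18 h and 6.17 to 6.78 at 24 h. Ttr of that list was listed at 0 in every library, and none of its 8 tested genes passed the test at either time. The summed level of 8 fibroblast and mesenchyme markers was 26.3 to 50.8 FPKM at 0 h, 43.1 to 90.03 at 18 h and 45 to 81.7 at 24 h, most of it Acta2 (adjusted p 0.15 at 24 h without the replicate block and 3.37e-04 with it), while Lum and Postn stayed at or below 0.151 FPKM. Pdgfrb of this list was upregulated at 24 h. By the adjusted p alone, 2 of its 6 tested genes were higher and 1 was lower at 24 h, and 0 passed at 18 h. Of 7 trophectoderm markers 6 were tested, and 3 were upregulated at 18 h and 3 at 24 h (Cdx2, Hand1 and Krt8 at both times). The summed level of the 7 went from 319 to 374 FPKM at 0 h to 611 to 814 at 24 h. Of 7 neuroectoderm markers 6 were tested, and 3 were upregulated at 18 h and 4 at 24 h. The summed level of these 7 was 30.6 to 45.3 FPKM at 0 h and 46.2 to 64.4 at 24 h. The part of such cells in the levels below was not tested. Beside these marker counts, limma called 1.33% of all genes tested upregulated and 0.724% downregulated at 18 h, and 2.07% and 0.836% at 24 h. By the adjusted p alone, 4.27% were higher and 3.72% lower at 18 h, and 6.52% and 5.11% at 24 h.

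Of the 82 genes, 57 had a mean of at least 0.1 FPKM over the 9 libraries and were tested, 26 had a mean of at least 1 FPKM and 12 of at least 10 FPKM. FPKM is a level per length of transcript, so it can be compared between genes. Integrins were the most abundant of the families, with a summed level of 252 to 337 FPKM in the 0 h libraries against 126 to 151 for laminins and 116 to 128 for collagens. Each family rested on few genes. At 0 h, Col18a1 gave 51.1 to 59.2% of the collagen level, Lama5 90.3 to 94% of the laminin alpha level, Lamb1 62.6 to 70.4% of the beta level and Itgb1 86.6 to 88.2% of the integrin beta level. Lama5 and Lamb1, whose chains join that of Lamc1 in a laminin, were thus the most abundant of their kinds.

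The order of collagens at 0 h was Col18a1 (68.3±2.92 FPKM, mean±s.d., n=3), Col4a1 (15.9±0.82), Col4a2 (9.61±1.1) and Col5a1 (5.87±1.38), with no overlap of libraries between neighbours in this order. Below them Col2a1, Col1a2, Col9a2, Col1a1, Col4a5 and Col7a1 followed between 3.53±0.141 and 1.81±0.328 FPKM, and each overlapped its neighbour. Among the laminins described here the order was Lamc1 (51.2±5.03), Lama5 (44.3±5.49), Lamb1 (19.5±0.985), Lamb2 (8.42±2.06) and Lama1 (2.78±0.883). Lamc1 and Lama5 overlapped, and the other neighbours did not. Among integrins Itgb1 (149±22.4) stood above Itga3 (88.4±18.5), and Itga6 (18.2±1.24), Itga5 (17.6±1.27) and Itgb5 (13.9±3.05) overlapped in pairs of neighbours. Itgb7 (4.43±1.14) and Itgav (4.06±0.791) also overlapped, and Itgb4 (1.57±0.0943), Itga9 (1.17±0.214) and Itgb3 (0.754±0.171) followed without overlap. At 18 h and at 24 h this order changed, and Itga9 stood above Itgb4 in all libraries.

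**Figure D1:**
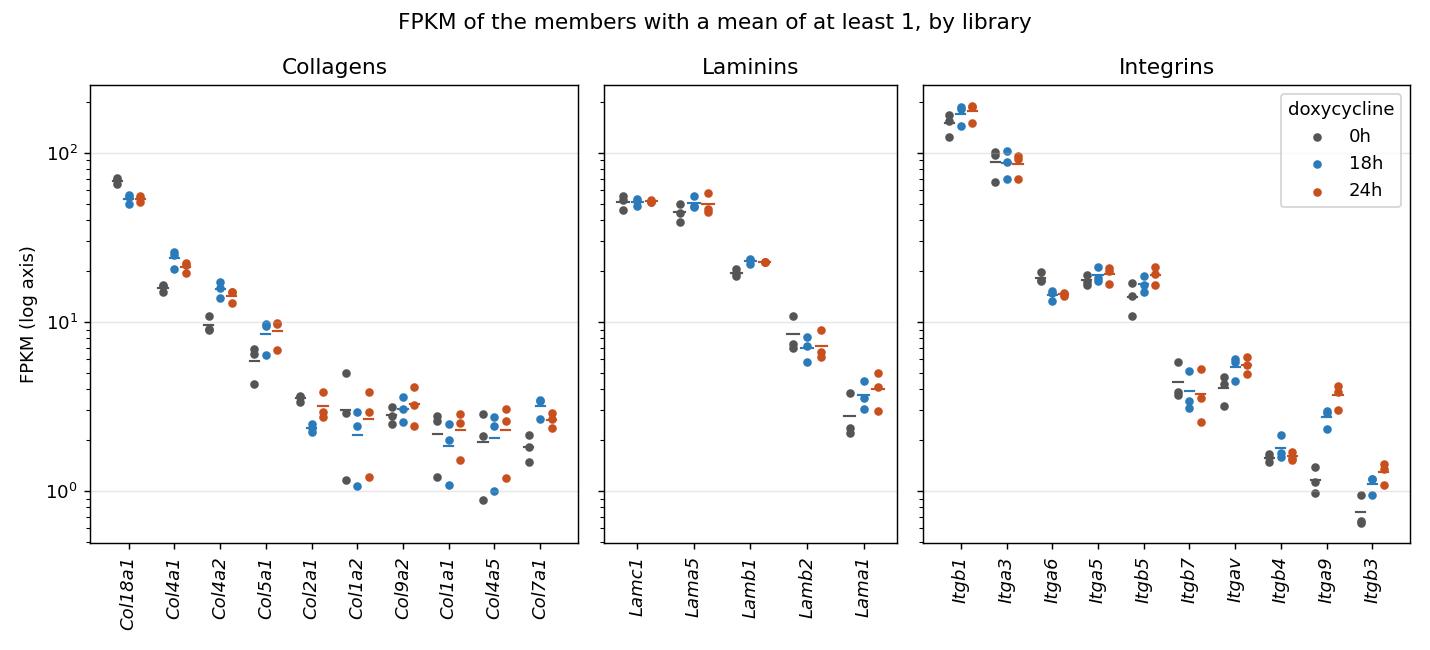
FPKM on a log axis of 25 of the 26 members with a mean of at least 1 FPKM, ordered by their mean at 0 h within each family. Each point is a library, the bars are the means of 3 libraries, and grey, blue and orange stand for 0 h, 18 h and 24 h in dox. Itga9 rises from 1.17 to 3.67 FPKM, while Col1a2, Col1a1 and Col4a5 spread over more than their change between times.

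Changes were tested with limma on log2(FPKM+0.1) over the 17951 genes with a mean of at least 0.1 FPKM. Fold-changes are given as the log2 value ± its standard error. Here, a gene rose or fell where its Benjamini–Hochberg adjusted p was at most 0.05, and it was upregulated or downregulated where its log2 fold-change was also at least 1 in size. At 18 h compared with 0 h, 1 of the 57 members tested was upregulated and 0 were downregulated, beside 1.33% and 0.724% of all genes tested. At 24 h these counts were 1 and 0, beside 2.07% and 0.836%. The upregulated gene was Itga9 at both times, so no collagen and no laminin was called in the limma fit. The counts at an unadjusted p under 0.05 were 5 higher and 4 lower collagens, 2 and 1 laminins and 4 and 3 integrins at 18 h, and 5 and 2, 2 and 2, and 5 and 1 at 24 h. Of all genes tested, 13.2% were higher and 12.3% lower at this threshold at 18 h, and 15% and 13.2% at 24 h. On reads recovered from the filtered table, edgeR and DESeq2 both called Itga9 upregulated at both times, Col17a1 and Itgal downregulated at 18 h and Lamb3 downregulated at 24 h. With the adjusted p alone, DESeq2 passed members that limma without the block did not: Col5a1, Col17a1, Itgal and Lamb3 at 18 h, and Col5a1, Col6a1, Col6a5, Col7a1, Itgav, Itgb5, Itgb8 and Lama3 at 24 h. Of these edgeR passed Col17a1 and Itgal at 18 h and Col6a1, Col6a5, Col7a1 and Lama3 at 24 h. Of the 19210 genes in that table, edgeR called 1.99% upregulated and 1.04% downregulated by 18 h and 2.81% and 1.25% by 24 h. Of the 17951 genes that limma tested, DESeq2 called 321 upregulated and 188 downregulated by 18 h and 444 and 196 by 24 h. These shares and counts include the minimum fold-change. Shares of all genes by the adjusted p alone are not given here for edgeR or DESeq2. With the replicate number as a block, edgeR called 2.63% and 1.62%, then 3.53% and 1.77%, and limma 1.71% and 1.11%, then 2.34% and 1.17%, with Itga9 again the only member called by limma.

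Without the minimum fold-change, 6 members rose and 4 fell at 18 h, beside 4.27% and 3.72% of all genes. At 24 h 6 rose and 3 fell, beside 6.52% and 5.11%. As shares of the 57 genes these are 10.5% and 7.02%, then 10.5% and 5.26%. The replicate numbers pair the libraries, and with the replicate number as a block 14 rose and 6 fell at 18 h (24.6% and 10.5%, beside 10.8% and 10.7% of all genes), and 14 rose and 4 fell at 24 h (24.6% and 7.02%, beside 13.6% and 12.5%). In 9 members every 18 h library was above every 0 h library and in 9 it was below (15.8% each), beside 14.4% and 13.7% of all genes. At 24 h 13 were above and 10 below (22.8% and 17.5%), beside 16.7% and 14.6%. The median log2 fold-change at 18 h was 0.046 in collagens, 0.19 in laminins and 0.17 in integrins, beside -0.0030 over all genes tested. At 24 h it was 0.21, 0.055 and 0.19, beside 0.0040, and the laminin median turned to -0.022 with median centring of the libraries. Both comparisons share the 0 h libraries.

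**Figure D2:**
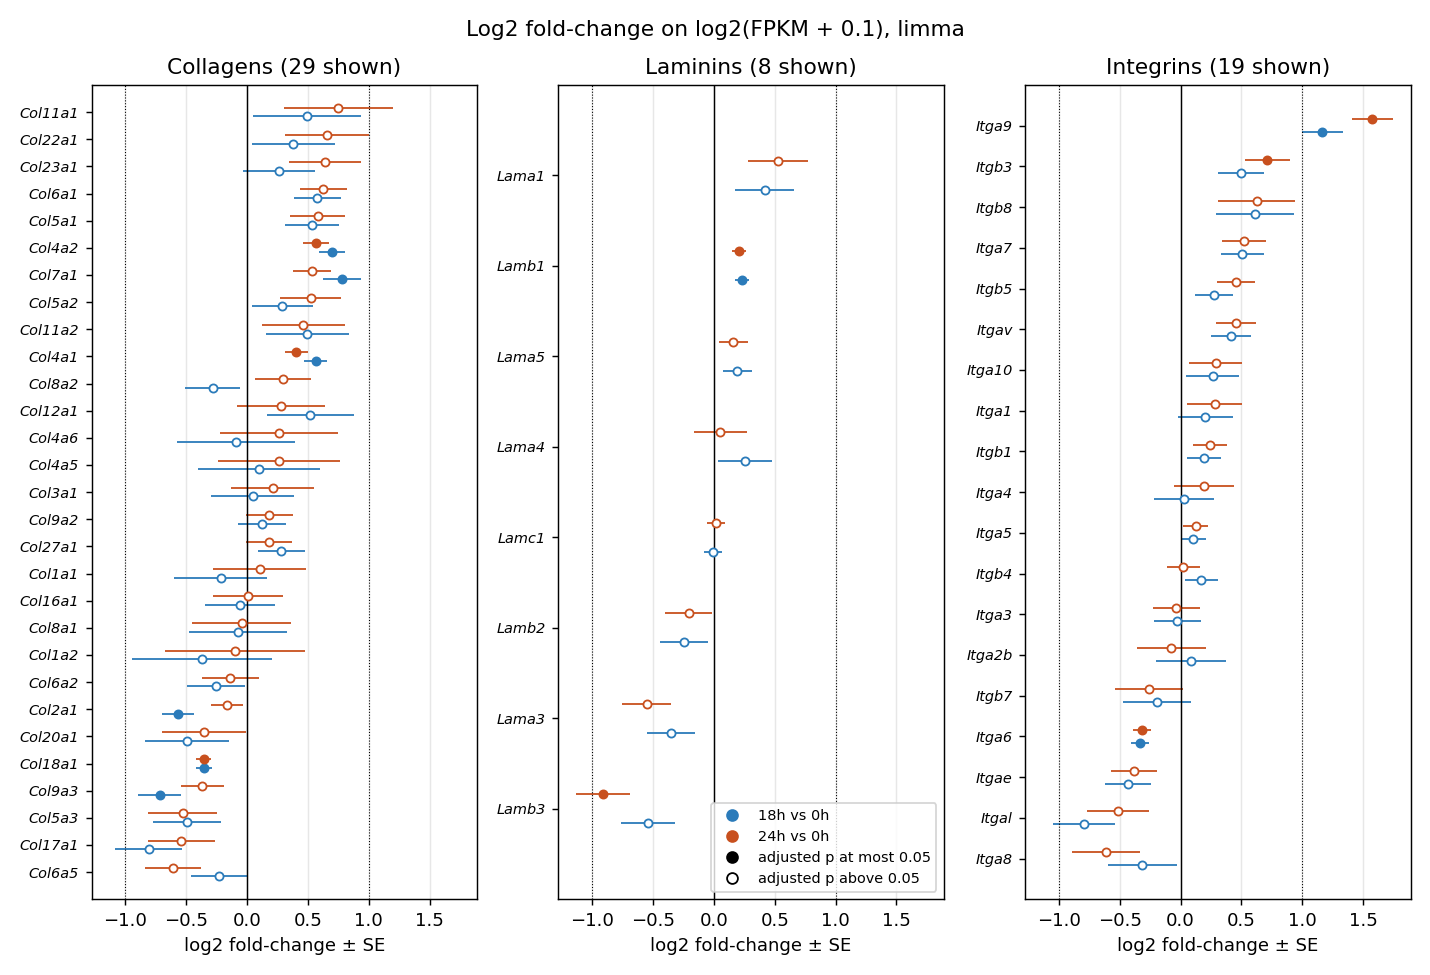
Log2 fold-change on log2(FPKM+0.1) with its standard error for 56 of the 57 members tested, at 18 h (blue) and 24 h (orange) compared with 0 h, from 3 libraries at each time. Filled points have an adjusted p of at most 0.05, open points do not, and dotted lines mark a log2 fold-change of 1 and -1. Only Itga9 lies beyond a dotted line with a filled point.

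Col4a1 and Col4a2 encode the chains of the common type IV collagen of basement membranes, and both rose at both times. Col4a1 (ENSMUSG00000031502; GRCm38 chromosome 8, 11198423 to 11312826, minus strand, 54 exons) measured 15, 16.2 and 16.6 FPKM (0 h), 20.5, 25.9 and 24.7 (18 h) and 19.5, 21.6 and 22.3 (24 h). Col4a2 (ENSMUSG00000031503; chromosome 8, 11312805 to 11449287, plus strand, 48 exons) measured 8.94, 9.02 and 10.9 FPKM (0 h), 13.9, 17.2 and 15.9 (18 h) and 12.9, 14.9 and 14.9 (24 h). In both genes every library with dox was above every 0 h library, and the 18 h and 24 h libraries overlapped. The log2 fold-change of Col4a1 was 0.56±0.094 (adjusted p 0.00984) at 18 h and 0.40±0.094 (adjusted p 0.0267) at 24 h. For Col4a2 it was 0.70±0.107 (adjusted p 0.00688) at 18 h and 0.57±0.107 (adjusted p 0.0124) at 24 h. When single libraries were left out, Col4a1 at 18 h passed in all 9 (adjusted p up to 0.0467), Col4a2 at 18 h passed in all 9 (adjusted p up to 0.0358), Col4a1 at 24 h passed in 5 of 9 and did not pass without 0 h replicate 1, 0 h replicate 2, 24 h replicate 2 and 24 h replicate 3 (adjusted p up to 0.10) and Col4a2 at 24 h passed in 7 of 9 and did not pass without 24 h replicate 2 and 24 h replicate 3 (adjusted p up to 0.0561). The ratio of Col4a1 to Col4a2 FPKM was 1.68, 1.8 and 1.52 (0 h), 1.48, 1.51 and 1.55 (18 h) and 1.51, 1.45 and 1.5 (24 h). The 24 h ratios were all below those at 0 h, and the ratios at 18 h overlapped them.

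The 2 genes lie head to head, and their annotated starts overlap by 22 bases. Their promoter windows, 250 bases before to 50 bases after the start in RefSeq (GRCm38.p6), are shown because they overlap by 78 bases. The length of this overlap follows from the chosen window and the 22 bases, and its part in the levels was not tested. It is in capitals and reads as the reverse complement in the other window. The window of Col4a1 is chr8:11312777-11313076 on the minus strand and that of Col4a2 is chr8:11312555-11312854 on the plus strand.
Col4a1: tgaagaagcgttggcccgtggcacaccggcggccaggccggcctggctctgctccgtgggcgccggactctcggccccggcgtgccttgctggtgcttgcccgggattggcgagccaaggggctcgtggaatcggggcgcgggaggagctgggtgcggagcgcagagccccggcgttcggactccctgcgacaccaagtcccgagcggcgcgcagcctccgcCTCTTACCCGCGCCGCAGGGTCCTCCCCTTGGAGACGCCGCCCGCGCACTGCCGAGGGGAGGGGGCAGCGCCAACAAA
Col4a2: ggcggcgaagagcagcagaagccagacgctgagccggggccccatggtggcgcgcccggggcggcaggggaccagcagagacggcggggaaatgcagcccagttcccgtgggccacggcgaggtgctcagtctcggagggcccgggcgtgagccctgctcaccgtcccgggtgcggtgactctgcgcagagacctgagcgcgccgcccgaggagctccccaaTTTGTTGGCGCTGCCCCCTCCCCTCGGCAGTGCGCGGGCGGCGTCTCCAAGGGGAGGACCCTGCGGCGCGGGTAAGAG
The E-box, the sequence CANNTG bound by E2A and other bHLH proteins, is its own reverse complement and so was found on both strands at once. Neither window holds it, while 72.3% of the 32851 windows in the table do. Of the 81 member symbols 58 had a window, and 42 of their 64 windows (65.6%) hold the E-box. The word CACCTG or its reverse complement CAGGTG is in 13 of the 64 (20.3%), beside 20.2% of all windows. The palindrome CAGCTG is in 15 (23.4%), beside 16.3%. Both words also count as E-boxes. A word in a window is a description and not a binding site, and its absence says only that these letters are not in this window.

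The other type IV genes stand in head-to-head pairs as well. Col4a5 and Col4a6 begin 1309 bases apart on chromosome X, and Col4a3 and Col4a4 begin 72 bases apart on chromosome 1. Col4a5 measured 0.886, 2.11 and 2.84 FPKM (0 h), 1.0, 2.41 and 2.72 (18 h) and 1.2, 2.61 and 3.03 (24 h). It had log2 fold-changes of 0.10±0.501 (adjusted p 0.93) at 18 h and 0.26±0.501 (adjusted p 0.777) at 24 h. Col4a6, at 0.181 to 0.792 FPKM, had -0.090±0.483 (adjusted p 0.932) and 0.26±0.483 (adjusted p 0.762). In both genes the libraries of all times overlapped, and replicate 1 was the lowest and replicate 3 the highest at every time. Col4a3 and Col4a4 had a mean below 0.1 FPKM and were not tested.

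Col18a1, the most abundant collagen, fell. It encodes a basement membrane collagen whose C-terminal fragment is endostatin. It measured 68.8, 70.9 and 65.1 FPKM (0 h), 54.7, 56.1 and 49.8 (18 h) and 53.7, 50.9 and 55.3 (24 h), and all libraries with dox were below all 0 h libraries. Log2 fold-changes were -0.35±0.0626 (adjusted p 0.0121) at 18 h and -0.36±0.0626 (adjusted p 0.00925) at 24 h. It passed at 24 h in all 9 fits that left out 1 library, and at 18 h in 8, with an adjusted p of 0.0507 without 18 h replicate 3. Its share of the summed collagen level went from 51.1 to 59.2% at 0 h to 39.5 to 48% at 18 h and 41.4 to 47.2% at 24 h, without overlap with 0 h, while the summed collagen level overlapped between times (116 to 128, 114 to 134 and 114 to 133 FPKM).

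Col7a1 encodes the chain of anchoring fibrils, which tie the epidermal basement membrane to the dermis, and is named here after its values were seen. It measured 1.82, 2.13 and 1.48 FPKM (0 h), 2.65, 3.4 and 3.46 (18 h) and 2.37, 2.67 and 2.89 (24 h). All libraries with dox exceeded all 0 h libraries. It rose at 18 h by a log2 fold-change of 0.78±0.159 (adjusted p 0.0207), and at 24 h it had 0.53±0.159 (adjusted p 0.0602), which passed with the replicate block (adjusted p = 0.0321). With each library left out in turn, Col7a1 at 18 h passed in 5 of 9 and did not pass without 0 h replicate 1, 0 h replicate 3, 18 h replicate 2 and 18 h replicate 3 (adjusted p up to 0.0842).

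Among fibrillar collagens, Col2a1 fell at 18 h in the limma fit without the block, and none passed in it at 24 h. Col2a1, the main collagen of cartilage and also a gene named after its values were seen, measured 3.62, 3.37 and 3.6 FPKM (0 h), 2.22, 2.49 and 2.36 (18 h) and 2.73, 2.93 and 3.85 (24 h). It was lower in all 18 h libraries than in all 0 h libraries, and all 24 h libraries were above all 18 h libraries and overlapped those at 0 h. Its log2 fold-change was -0.56±0.129 (adjusted p 0.0318) at 18 h, where it fell, and -0.17±0.129 (adjusted p 0.439) at 24 h. Over the 9 fits that each lacked a library, Col2a1 at 18 h passed in 3 of 9, those without 0 h replicate 2, 24 h replicate 1 and 24 h replicate 3 (adjusted p otherwise up to 0.0979). Col5a1, whose chain helps to start collagen fibrils, measured 4.29, 6.86 and 6.46 FPKM (0 h), 6.39, 9.48 and 9.68 (18 h) and 6.8, 9.71 and 9.8 (24 h). The libraries overlapped between times, and replicate 1 was the lowest at each. Its log2 fold-change was 0.53±0.226 (adjusted p 0.177) at 18 h and 0.58±0.226 (adjusted p 0.13) at 24 h without the block, and the adjusted p with the block was 0.00146 and 8.51e-04. By DESeq2 without the block it was 0.0432 and 0.0242, and by edgeR without it 0.099 and 0.0656. Col5a2 and Col5a3, the other type V chains, had mean levels of 0.324 and 0.34 FPKM. At 24 h Col5a2 had 0.52±0.251 (adjusted p 0.208) and Col5a3 -0.53±0.28 (adjusted p 0.25), which are opposite in sign. Neither passed by limma with the block (adjusted p 0.0852 and 0.0766), while edgeR with the block gave 0.00436 and 0.00661.

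Type I collagen, the main collagen of bone, skin and tendon, was low. Col1a1 measured 1.2, 2.58 and 2.77 FPKM (0 h), 1.09, 2.48 and 1.99 (18 h) and 1.52, 2.52 and 2.84 (24 h). Col1a2 measured 1.17, 2.89 and 4.97 FPKM (0 h), 1.07, 2.42 and 2.93 (18 h) and 1.22, 2.94 and 3.82 (24 h). The libraries of the times overlapped in both genes, with replicate 1 lowest at each time. By 24 h log2 fold-changes were 0.10±0.38 (adjusted p 0.89) for Col1a1 and -0.10±0.574 (adjusted p 0.933) for Col1a2. At 18 h they were -0.22±0.38 (adjusted p 0.76) and -0.37±0.574 (adjusted p 0.726). For both genes the sign changed when single libraries were left out. The ratio of Col1a1 to Col1a2 FPKM lay between 0.556 and 1.25 over the 9 libraries. Col11a1, which builds thin fibrils of cartilage, went from 0.323, 0.599 and 0.77 FPKM (0 h) to 0.622, 1.02 and 1.42 (24 h). The libraries overlapped. Its fold-change by 24 h was 0.75±0.446 (adjusted p 0.304), and the adjusted p with the block was 0.0164. Col11a2 had 0.46±0.341 (adjusted p 0.41) at 24 h.

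Type IX collagens coat cartilage fibrils, and Col9a3 fell at 18 h. It measured 1.39, 1.11 and 1.13 FPKM (0 h), 0.715, 0.552 and 0.848 (18 h) and 0.899, 0.865 and 0.982 (24 h), and it was lower in all libraries with dox than in all 0 h libraries, with log2 fold-changes of -0.72±0.176 (adjusted p 0.0403) at 18 h and -0.37±0.176 (adjusted p 0.208) at 24 h. The fall at 18 h passed in 0 of the 9 fits that left out 1 library, with adjusted p values of 0.0551 to 0.127. Col9a2 measured 2.78, 2.48 and 3.14 FPKM (0 h), 3.59, 3.05 and 2.56 (18 h) and 4.13, 2.42 and 3.2 (24 h), with overlap between the times and a log2 fold-change of 0.18±0.195 (adjusted p 0.574) at 24 h. Col9a1 was below the filter. Its libraries held 3, 1 and 0 reads (0 h) and 10, 10 and 7 (24 h), and edgeR called it at 24 h (adjusted p = 0.0425). Since its 0 h libraries hold 3 reads or fewer, no fold is given.

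Type VI collagens form beaded filaments around cells. Col6a1 measured 0.364, 0.447 and 0.504 FPKM (0 h), 0.609, 0.742 and 0.755 (18 h) and 0.602, 0.734 and 0.864 (24 h). It was higher in all libraries with dox than in all 0 h libraries. Log2 fold-changes were 0.58±0.192 (adjusted p 0.10) at 18 h and 0.63±0.192 (adjusted p 0.0661) at 24 h, and the adjusted p with the block was 0.0238 and 0.0153. Its partner chain Col6a2 had -0.25±0.237 (adjusted p 0.549) and -0.14±0.237 (adjusted p 0.751) at levels of 0.779 FPKM at 0 h and 0.693 at 24 h, and Col6a5 had -0.61±0.23 (adjusted p 0.121) at 24 h by limma, with an adjusted p of 0.0305 by edgeR and 0.0101 by DESeq2. Col6a3, the remaining chain of the common type VI molecule, had a mean of 0.0163 FPKM and was not tested. Col17a1, a transmembrane collagen of hemidesmosomes, is named because both count tools called it. It measured 0.415, 0.289 and 0.335 FPKM (0 h), 0.182, 0.118 and 0.165 (18 h) and 0.287, 0.122 and 0.229 (24 h). By 18 h its log2 fold-change was -0.81±0.275 (adjusted p 0.108), the adjusted p was 0.0376 with the block and 0.0356 by edgeR. Its reads per library numbered 17 to 57.

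Lama5, Lamb1 and Lamc1 encode the chains of a laminin on which ESCs are often grown. Lama5 measured 43.8, 39.1 and 50.1 FPKM (0 h), 47.6, 48.5 and 55.6 (18 h) and 44.5, 46.7 and 57.6 (24 h), with overlap between times. Its log2 fold-change was 0.19±0.119 (adjusted p 0.348) at 18 h, with an adjusted p of 0.0441 with the block, and 0.16±0.119 (adjusted p 0.414) at 24 h. Lamc1 measured 52.5, 45.7 and 55.5 FPKM (0 h), 52.9, 51.7 and 48.3 (18 h) and 52.3, 51.3 and 51.2 (24 h) and had -0.0033±0.0737 (adjusted p 0.988) and 0.016±0.0737 (adjusted p 0.917). Lamb1 measured 18.6, 19.5 and 20.5 FPKM (0 h), 22, 23.5 and 23.3 (18 h) and 22.6, 22.6 and 22.5 (24 h), and all libraries with dox were above all 0 h libraries. It rose by a log2 fold-change of 0.23±0.0558 (adjusted p 0.0381) at 18 h and 0.21±0.0558 (adjusted p 0.0434) at 24 h. Leaving out 1 library at a time, Lamb1 at 18 h passed in 2 of 9, those without 0 h replicate 3 and 18 h replicate 1 (adjusted p otherwise up to 0.131), and Lamb1 at 24 h passed in 1 of 9, that without 0 h replicate 3 (adjusted p otherwise up to 0.129).

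Lama3 and Lamb3 encode chains of a laminin that anchors stratified epithelia, and Lamb3 fell at 24 h. Lamb3 (ENSMUSG00000026639; chromosome 1, 193207699 to 193343878, plus strand, 34 exons) measured 1.15, 0.794 and 1.47 FPKM (0 h), 0.728, 0.692 and 0.775 (18 h) and 0.554, 0.45 and 0.639 (24 h). All 24 h libraries were below all 18 h libraries, and all of those were below all 0 h libraries. Its log2 fold-change was -0.54±0.222 (adjusted p 0.166) at 18 h, where the adjusted p with the block was 0.0486, and -0.91±0.222 (adjusted p 0.0319) at 24 h, where it fell. Lama3 measured 0.652, 0.702 and 0.565 FPKM (0 h), 0.501, 0.564 and 0.385 (18 h) and 0.454, 0.427 and 0.335 (24 h). Its libraries with dox were below those at 0 h, with log2 fold-changes of -0.35±0.198 (adjusted p 0.306) at 18 h and -0.55±0.198 (adjusted p 0.106) at 24 h, with an adjusted p of 0.0338 at 24 h with the block. Lamb3 and Lama3 are named after their values were seen. Reads per library numbered 76 to 212 on Lamb3 and 98 to 181 on Lama3. With 1 library removed, Lamb3 at 24 h passed in 2 of 9, those without 0 h replicate 2 and 18 h replicate 1 (adjusted p otherwise up to 0.112). The gene model of Lamb3 overlaps other genes on both strands, among them Hsd11b1 and G0s2.

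RefSeq places starts of Lamb3 inside the gene model given above, 94295 and 94544 bases after its first base. The window of the first, chr1:193301744-193302043 on the plus strand, is shown beside the only window of Itga9, chr9:118711442-118711741 on the plus strand, whose start lies 105002 bases inside its gene model. They are printed because Lamb3 fell at 24 h, Itga9 was upregulated, and both windows hold E-boxes, which are in capitals.
Lamb3: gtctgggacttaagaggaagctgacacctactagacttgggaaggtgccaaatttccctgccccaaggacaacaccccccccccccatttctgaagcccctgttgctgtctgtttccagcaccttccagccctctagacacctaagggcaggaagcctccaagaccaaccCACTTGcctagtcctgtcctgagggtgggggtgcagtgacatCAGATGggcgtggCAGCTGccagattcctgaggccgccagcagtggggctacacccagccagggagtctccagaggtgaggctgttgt
Itga9: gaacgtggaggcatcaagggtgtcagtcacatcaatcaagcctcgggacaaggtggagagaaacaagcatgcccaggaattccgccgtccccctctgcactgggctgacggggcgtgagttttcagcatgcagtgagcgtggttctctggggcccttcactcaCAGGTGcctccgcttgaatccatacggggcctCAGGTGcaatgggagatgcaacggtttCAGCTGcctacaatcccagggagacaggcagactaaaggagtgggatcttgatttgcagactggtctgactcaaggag
The window of Lamb3 holds 3 of these words, the first CACTTG and the last the palindrome CAGCTG, and that of Itga9 also holds 3, CAGGTG at 2 places and CAGCTG. The window of the second Lamb3 start, not printed, holds 2 E-boxes, both CACCTG. Whether the word goes with the direction of change was not tested, and Itga6, Col2a1 and Col9a3, which fell, have no window. Lamb1, which rose, has 2 E-boxes in its window, Col7a1, which rose at 18 h, has 0, and Col18a1, which fell, has 0 in both of its windows.

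Lamb2 and Lama1 also had means above 1 FPKM. Lamb2, a beta chain of nerve, muscle and kidney basement membranes, measured 7.05, 7.43 and 10.8 FPKM (0 h), 5.8, 7.24 and 8.08 (18 h) and 6.15, 6.62 and 8.94 (24 h). Its libraries overlapped between times, and the log2 fold-change at 24 h was -0.21±0.197 (adjusted p 0.528). Lama1, the alpha chain of the first basement membranes of the embryo, measured 3.8, 2.19 and 2.35 FPKM (0 h), 4.45, 3.56 and 3.03 (18 h) and 4.95, 4.12 and 2.98 (24 h). The libraries overlapped, with replicate 1 the highest at each time. It had log2 fold-changes of 0.42±0.245 (adjusted p 0.325) at 18 h and 0.53±0.245 (adjusted p 0.194) at 24 h, and the adjusted p with the block was 0.044 and 0.0174. Summed over all chains, laminin alpha measured 42.3 to 53.2 FPKM at 0 h and 50.2 to 61.2 at 24 h, and beta 26.8 to 32.8 and 29.3 to 32.1, both with overlap between times. Within the beta chains the share of Lamb1 went from 62.6 to 70.4% at 0 h to 72.4 to 77.1% at 18 h without overlap, and to 70.2 to 77.1% at 24 h, where it overlapped.

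Itga9 had the largest log2 fold-change of the 57 members tested by limma at both times. Its alpha subunit pairs with the Itgb1 subunit and binds tenascin C, osteopontin and other ligands. Itga9 (ENSMUSG00000039115; chromosome 9, 118606690 to 118901003, plus strand, 32 exons) measured 1.13, 0.97 and 1.39 FPKM (0 h), 2.33, 2.95 and 2.89 (18 h) and 3.01, 3.85 and 4.15 (24 h). All 24 h libraries were above all 18 h libraries, and all of those above all 0 h libraries. It was upregulated by a log2 fold-change of 1.16±0.169 (adjusted p 0.0055) at 18 h and 1.58±0.169 (adjusted p 0.0012) at 24 h. The reads on Itga9 numbered 208, 179 and 233 (0 h) and 588, 755 and 869 (24 h). Both calls held in all 9 fits that left out 1 library, with adjusted p values up to 0.0312 and 0.00882. At 18 h it was 0.78 where the pseudocount was 1, under the minimum. Itga4, the most similar alpha subunit, was at a mean of 0.207 FPKM and had 0.19±0.246 (adjusted p 0.647) at 24 h. Among ligands, Tnc, at 0.598, 0.756 and 0.548 FPKM by 24 h, had 0.66±0.199 (adjusted p 0.0633) and an adjusted p of 0.0186 with the block, and Spp1, which encodes osteopontin, had 0.13±0.086 (adjusted p 0.368) at 59.2, 61.1 and 66.5 FPKM.

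Of the integrin alpha subunits that bind laminins, Itga6 fell at both times, and Itga3 and Itga7 did not pass. Itga6 measured 17.6, 17.4 and 19.7 FPKM (0 h), 15.3, 14.9 and 13.2 (18 h) and 14.8, 14.7 and 14.2 (24 h). Every library with dox was below every 0 h library. Log2 fold-changes were -0.34±0.0738 (adjusted p 0.0271) at 18 h and -0.32±0.0738 (adjusted p 0.0257) at 24 h. When single libraries were left out, Itga6 at 18 h passed in 5 of 9 and did not pass without 0 h replicate 1, 0 h replicate 3, 18 h replicate 2 and 18 h replicate 3 (adjusted p up to 0.0947), and Itga6 at 24 h passed in 4 of 9, those without 0 h replicate 2, 18 h replicate 1, 18 h replicate 2 and 18 h replicate 3 (adjusted p otherwise up to 0.0923). Itga3, the most abundant alpha subunit, measured 67.1, 101 and 97.3 FPKM (0 h), 69.7, 102 and 87.7 (18 h) and 69.5, 92.3 and 95.6 (24 h). The times overlapped with replicate 1 lowest at each, with log2 fold-changes of -0.028±0.192 (adjusted p 0.951) and -0.035±0.192 (adjusted p 0.93). Itga7, known from muscle, measured 0.575, 0.644 and 0.619 FPKM (0 h), 0.785, 1.18 and 0.814 (18 h) and 0.961, 0.84 and 0.97 (24 h). All of its libraries with dox were above those at 0 h, with log2 fold-changes of 0.51±0.178 (adjusted p 0.116) and 0.52±0.178 (adjusted p 0.0916). Itgb4, the beta subunit that joins the Itga6 subunit in hemidesmosomes, measured 1.58, 1.66 and 1.48 FPKM (0 h), 1.6, 2.13 and 1.67 (18 h) and 1.53, 1.56 and 1.71 (24 h), with overlap and 0.023±0.134 (adjusted p 0.933) at 24 h.

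Itgb1, the beta subunit shared by most of these receptors, was the most abundant member of the 82. It measured 124, 155 and 168 FPKM (0 h), 143, 185 and 181 (18 h) and 150.3, 189 and 187 (24 h). Replicate 1 was the lowest at each time, and within each replicate number the level at 24 h was above that at 0 h. Log2 fold-changes were 0.19±0.142 (adjusted p 0.44) at 18 h and 0.24±0.142 (adjusted p 0.295) at 24 h without the block, and the adjusted p with the block was 0.0172 and 0.00606. Itgav and Itgb5, subunits of receptors for vitronectin, did not pass in the limma fit over all libraries and passed in it with the block, and DESeq2 without it gave an adjusted p of 0.0314 for Itgav and 0.0291 for Itgb5 at 24 h. Without 0 h replicate 3 limma gave 0.0427 for Itgb5 at 24 h. Itgav measured 3.18, 4.72 and 4.28 FPKM (0 h), 4.48, 6.03 and 5.78 (18 h) and 4.9, 6.15 and 5.58 (24 h). All of its 24 h libraries were above those at 0 h. The fold-changes were 0.42±0.165 (adjusted p 0.154) and 0.45±0.165 (adjusted p 0.111), with adjusted p values of 0.00707 and 0.00422 with the block. Itgb5 measured 10.8, 14.2 and 16.9 FPKM (0 h), 14.9, 16.4 and 18.7 (18 h) and 16.6, 19.2 and 21 (24 h). The fold-changes were 0.27±0.159 (adjusted p 0.317) and 0.46±0.159 (adjusted p 0.0972), with 0.029 and 0.00415 with the block.

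Itgb3, which pairs with the Itgav subunit, measured 0.661, 0.65 and 0.951 FPKM (0 h), 0.941, 1.17 and 1.18 (18 h) and 1.08, 1.35 and 1.44 (24 h). All 24 h libraries were above all 0 h libraries. It rose at 24 h by a log2 fold-change of 0.71±0.187 (adjusted p 0.0408), and at 18 h it had 0.50±0.187 (adjusted p 0.136) and an adjusted p of 0.0362 with the block. In fits that left out 1 library, Itgb3 at 24 h passed in 3 of 9, those without 0 h replicate 3, 18 h replicate 1 and 24 h replicate 1 (adjusted p otherwise up to 0.138). Itga5, the alpha subunit of the main fibronectin receptor, measured 16.6, 17.1 and 19 FPKM (0 h), 17.4, 21.2 and 18.2 (18 h) and 16.8, 20.001 and 20.8 (24 h). The times overlapped, with log2 fold-changes of 0.10±0.103 (adjusted p 0.569) at 18 h and 0.12±0.103 (adjusted p 0.472) at 24 h. Itgb7, known from lymphocytes, measured 5.75, 3.71 and 3.84 FPKM (0 h), 5.13, 3.1 and 3.41 (18 h) and 5.22, 2.54 and 3.52 (24 h), with replicate 1 the highest at each time and -0.26±0.282 (adjusted p 0.583) at 24 h. The collagen receptors Itga1 and Itga10 had means of 0.521 and 0.217 FPKM and did not pass, and Itga2 and Itga11 were below the filter. Itgal, the alpha subunit of a leukocyte integrin, is named because both count tools called it. It measured 0.281, 0.228 and 0.322 FPKM (0 h), 0.14, 0.11 and 0.101 (18 h) and 0.228, 0.131 and 0.14 (24 h). All libraries with dox were below those at 0 h, and the log2 fold-change at 18 h was -0.79±0.253 (adjusted p 0.0879) by limma, with an adjusted p of 0.0175 by edgeR.

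**Figure D3:**
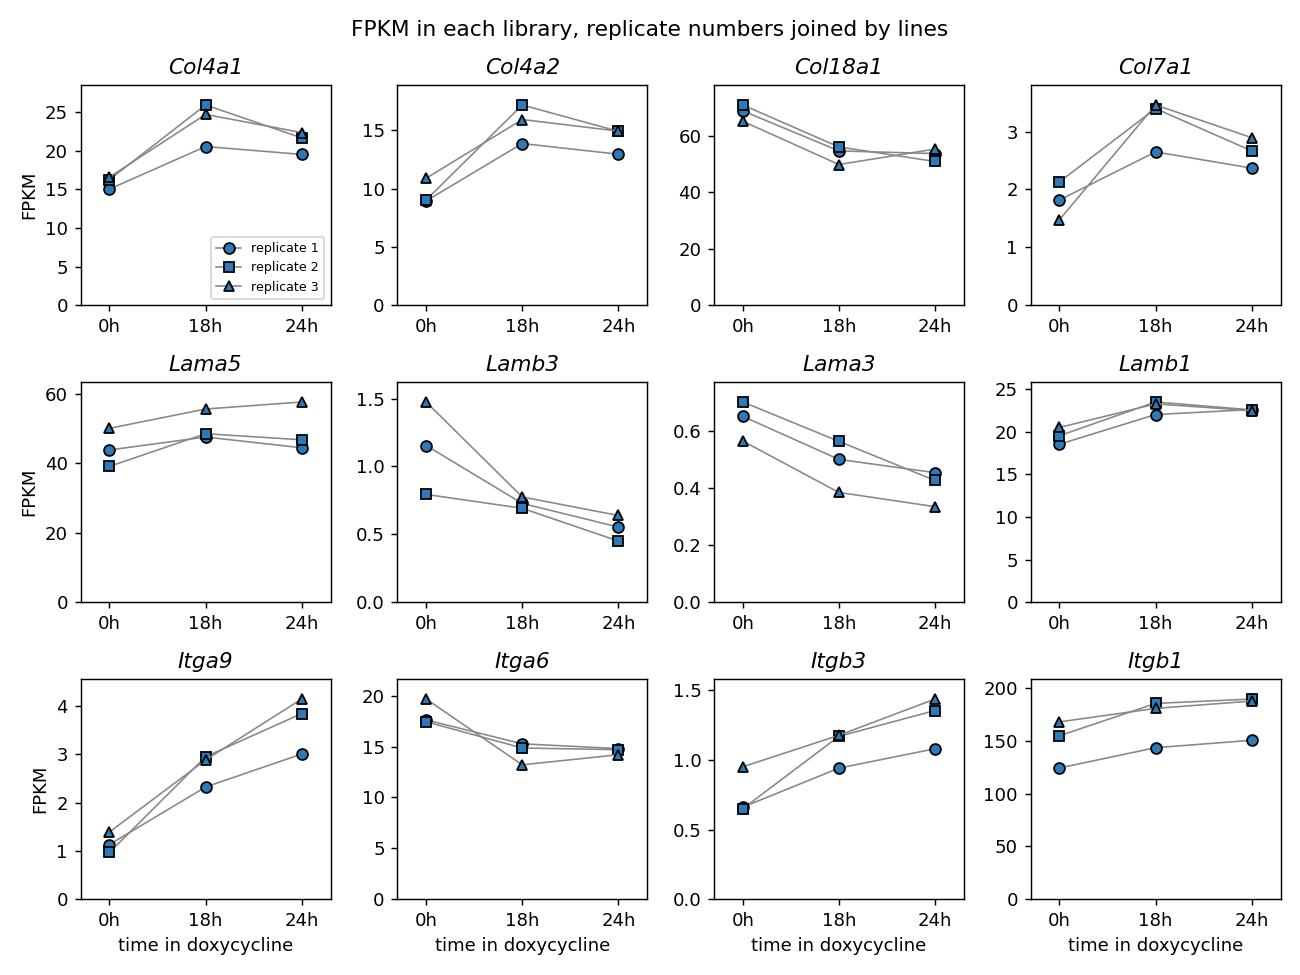
FPKM by time in dox of 12 members, each on its own axis from 0. Circles, squares and triangles are replicates 1, 2 and 3, and lines join libraries with the same replicate number. Col4a1, Col4a2 and Col7a1 are highest at 18 h in each replicate number, Itga9 climbs from 0 h to 24 h in each, and Lamb3 and Lama3 go down.

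Between 18 h and 24 h, 0 of the 57 members were upregulated and 0 were downregulated by limma, beside 0.0167% and 0.00557% of all genes. At an unadjusted p under 0.05, 3 members were higher and 0 lower, beside 3.11% and 2.48% of all genes. Without the block edgeR and DESeq2 called 0 members, and of the 17951 genes that limma tested edgeR called 0 and DESeq2 called 0 upregulated and 2 downregulated. With the replicate block and no minimum fold-change limma called 0 members, beside 0.0334% and 0.0111% of all genes, and edgeR with the block and the minimum called 0, beside 0.0364% and 0.0104%. In 5 members all 24 h libraries exceeded all 18 h libraries and in 2 they were below, beside 6.81% and 6.04%. The log2 fold-changes lay between -0.38 and 0.58, with a median of 0.036 beside 0.0070 over all genes. Itga9 had 0.41 (s.e. 0.169, adjusted p 0.866 by limma and 0.0344 by edgeR with the block). Col2a1 had 0.40 (s.e. 0.129, adjusted p 0.857 by limma and 0.0477 by edgeR with the block).

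The replicate number went with the level of many members at every time. Replicate 1 was the lowest of its 3 libraries at every time in 26 of the 57 members tested (45.6%), beside 14.1% of all genes tested. These were 17 of 29 collagens, 2 of 9 laminins and 7 of 19 integrins. Replicate 1 was the highest at every time in 4 members, beside 14% of all genes, and replicate 3 was the highest in 14, beside 10.2%. Replicate 3 was the lowest in 2 members, beside 7.95%, and replicate 2 was the lowest in 6 and the highest in 5, beside 8.54% and 6.85%. The median deviation of replicate 1 from the mean of its time on the log2(FPKM+0.1) scale, averaged over the 3 times, was -0.19 in collagens, -0.17 in integrins, -0.015 in laminins and 0.27 in the 8 pluripotency markers. The 17 collagens were Col1a1, Col1a2, Col3a1, Col4a1, Col4a2, Col4a5, Col4a6, Col5a1, Col5a2, Col6a1, Col6a2, Col8a1, Col8a2, Col11a1, Col12a1, Col16a1 and Col27a1. Of the 6 fibroblast and mesenchyme markers tested, 2 (Dcn and Acta2) were lowest in replicate 1 at every time, while the other 4 were not. Acta2 measured 19.6, 30.3 and 41.6 FPKM at 0 h. Of other basement membrane and matrix proteins 17 of 30 and of collagen processing enzymes 12 of 31 were also lowest in replicate 1 at every time, and so were 10 of 27 integrin adaptors and activators, 10 of 26 matrix proteases and inhibitors, 4 of 6 trophectoderm, 2 of 6 neuroectoderm and 1 of 8 extraembryonic endoderm markers. The part of differing cells in this pattern was not tested.

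**Figure D4:**
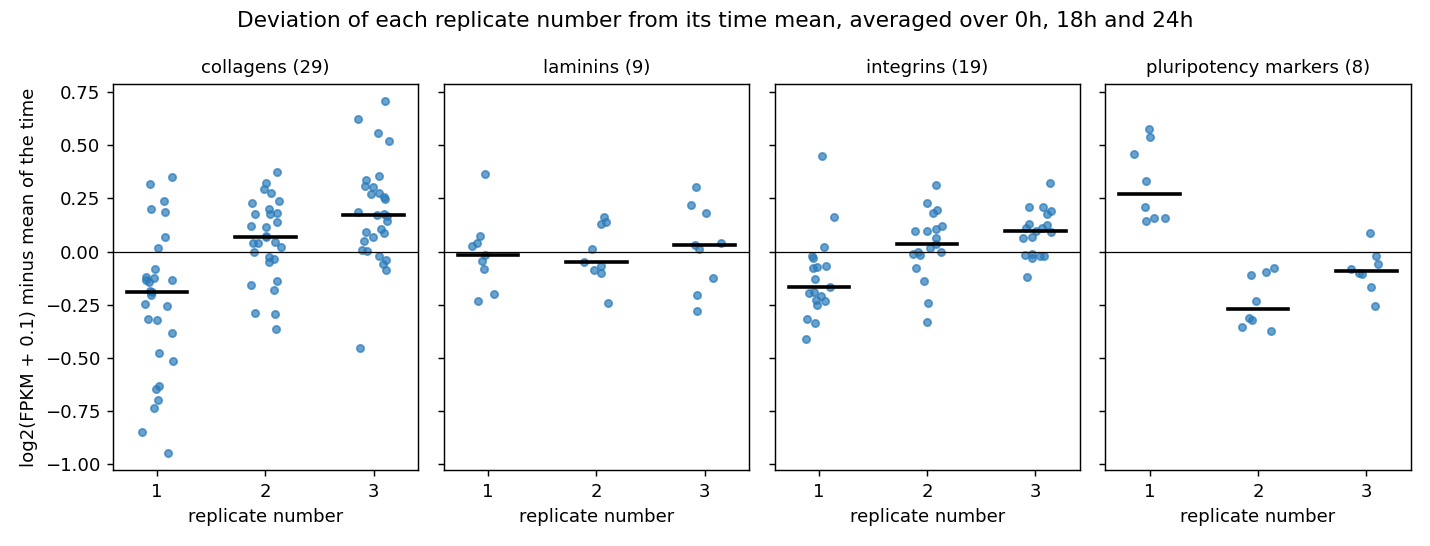
Deviation of each replicate number from the mean of its time on the log2(FPKM+0.1) scale, averaged over 0 h, 18 h and 24 h, for the 57 members tested by family and for 8 pluripotency markers. Each point is a gene, placed with random sideways jitter, and black bars are medians. In replicate 1 the medians are -0.19 for collagens and 0.27 for pluripotency markers.

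Partners of the members were taken from 4 lists. Of 33 other basement membrane and matrix genes, 30 were tested, 1 was upregulated and 0 downregulated at each time by limma, and the median log2 fold-change was 0.17 at 18 h and 0.29 at 24 h. Smoc2, a calcium-binding matrix protein, was upregulated, with 1.33±0.284 (adjusted p 0.0241) at 18 h and 1.37±0.284 (adjusted p 0.0177) at 24 h from 0.074, 0.132 and 0.0974 FPKM at 0 h. With the replicate block Vcan, the proteoglycan versican, was upregulated as well at 18 h, so the count was 2 at 18 h and 1 at 24 h. Of the 30 genes tested, edgeR and DESeq2 called 2 (Smoc2 and Vcan) at both times. Below the filter both tools also passed Frem1, which was higher at 18 h (adjusted p 0.0402 by edgeR and 0.00839 by DESeq2) and at 24 h (0.0132 and 9.03e-04). They passed Fbln5 as lower at 18 h (0.0365 and 0.0275). The edgeR log2 fold-changes were 1.86 and 2.19 for Frem1 and -2.08 for Fbln5. Both genes had a mean below 0.1 FPKM, so the size of these folds is uncertain. Vcan measured 2.06, 3.35 and 3.51 FPKM (0 h), 4.36, 6.41 and 8.24 (18 h) and 4.02, 6.19 and 7.78 (24 h). Its level was above that of every 0 h library in all 6 libraries with dox, and its log2 fold-changes were 1.06±0.302 (adjusted p 0.0638) and 0.98±0.302 (adjusted p 0.0676) without the block, with adjusted p values of 4.52e-04 and 4.87e-04 with it. With the adjusted p alone 3 genes of this list rose and 1 fell at 18 h, and 3 rose and 2 fell at 24 h, which with the block became 9 up and 2 down at 18 h and 11 up and 4 down at 24 h. Of all genes, 4.27% rose and 3.72% fell at 18 h and 6.52% and 5.11% at 24 h by this rule, and with the block 10.8% and 10.7%, then 13.6% and 12.5%. The genes of this paragraph that did not pass both thresholds are named after their values were seen. Nid1 and Nid2 encode nidogens, which link laminin to type IV collagen, and both rose. Nid2 measured 54.1, 55.6 and 49.9 FPKM (0 h), 76.2, 74.2 and 69.6 (18 h) and 72.6, 73.1 and 69.3 (24 h), with 0.46±0.0595 (adjusted p 0.00331) at 18 h and 0.43±0.0595 (adjusted p 0.00338) at 24 h. Nid1 had 0.40±0.0878 (adjusted p 0.0258) and 0.48±0.0878 (adjusted p 0.0112). Agrn encodes agrin, a laminin-binding proteoglycan, and fell. It measured 58, 50.2 and 64.7 FPKM (0 h), 36.8, 37 and 34.8 (18 h) and 37.7, 36.2 and 41.5 (24 h), with -0.66±0.0916 (adjusted p 0.00456) and -0.58±0.0916 (adjusted p 0.00626). Both Nid2 and Agrn passed in all 9 fits that left out 1 library at both times. Hspg2, which encodes perlecan, had 0.17±0.124 (adjusted p 0.418) at 24 h. Bcam, a receptor for the Lama5 chain, fell at 24 h with -0.40±0.0826 (adjusted p 0.0172), and had an adjusted p of 0.0686 without 24 h replicate 2. In fits that left out 1 library, Smoc2 at 18 h passed in 5 of 9 and did not pass without 0 h replicate 1, 0 h replicate 3, 18 h replicate 2 and 18 h replicate 3 (adjusted p up to 0.0918), Smoc2 at 24 h passed in 7 of 9 and did not pass without 0 h replicate 1 and 24 h replicate 3 (adjusted p up to 0.0609) and Nid1 at 18 h passed in 5 of 9 and did not pass without 0 h replicate 1, 0 h replicate 3, 18 h replicate 2 and 18 h replicate 3 (adjusted p up to 0.0987).

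Of 32 collagen processing enzymes, 31 were tested, and limma called 0 upregulated or downregulated at either time, with or without the block. Both edgeR and DESeq2 called 1 upregulated at both times, Adamts2, which cleaves the amino propeptide of procollagen and is named after its values were seen. Its log2 fold-change by edgeR was 1.27 (adjusted p 0.0144, and 4.96e-04 by DESeq2) by 18 h and 1.15 (0.019 and 0.00167) by 24 h, and by limma it was 0.96±0.274 (adjusted p 0.0643) and 0.88±0.274 (adjusted p 0.0685), with adjusted p values of 0.00975 and 0.0105 with the block. With the adjusted p alone 2 rose and 2 fell at 18 h, and 2 rose and 2 fell at 24 h, which with the block became 6 up and 4 down at 18 h and 9 up and 5 down at 24 h, beside the same shares of all genes. P3h1, a collagen prolyl 3-hydroxylase, had 0.53±0.0844 (adjusted p 0.00625) at 24 h, and P3h4, which acts with lysyl hydroxylase, had -0.44±0.101 (adjusted p 0.0251). Serpinh1, the collagen chaperone of the endoplasmic reticulum, measured 60.3, 68.1 and 112 FPKM (0 h), 47.7, 70.8 and 80.1 (18 h) and 55.9, 73.5 and 98.7 (24 h), with overlap and -0.059±0.282 (adjusted p 0.917) at 24 h. Of 28 integrin adaptors and activators, 27 were tested and 1 was upregulated at each time, with or without the block. With the block and the adjusted p alone the counts were 4 up and 4 down at 18 h and 9 up and 4 down at 24 h, where without it they were 2 up and 1 down at 18 h and 3 up and 2 down at 24 h, again beside those shares of all genes. Tns1, a tensin that links integrins to actin, measured 0.579, 0.643 and 0.417 FPKM (0 h), 1.48, 1.54 and 1.3 (18 h) and 1.57, 1.76 and 1.43 (24 h), with 1.27±0.17 (adjusted p 0.0041) and 1.40±0.17 (adjusted p 0.00197), while its relative Tns3 fell, with -0.42±0.0927 (adjusted p 0.0279) and -0.60±0.0927 (adjusted p 0.00572). Of 31 matrix proteases and inhibitors, 26 were tested, 2 were upregulated at each time and 1 was downregulated at 18 h, with or without the block. With the adjusted p alone the counts were 3 up and 1 down at 18 h and 5 up and 1 down at 24 h, which with the block became 10 up and 3 down at 18 h and 11 up and 4 down at 24 h, and the shares of all genes to set beside them are those of the other lists. Adamts4, a protease of proteoglycans, was upregulated with 1.09±0.215 (adjusted p 0.0185) at 18 h and 1.19±0.215 (adjusted p 0.0104) at 24 h. Plat, the tissue plasminogen activator, was upregulated with 1.19±0.244 (adjusted p 0.0219) and 1.16±0.244 (adjusted p 0.0187). Mmp9, a gelatinase that degrades type IV collagen, was downregulated at 18 h with -1.17±0.283 (adjusted p 0.0382) at 0.249, 0.447 and 0.52 FPKM (0 h) and 0.148, 0.102 and 0.105 (18 h), and had -1.0±0.283 (adjusted p 0.052) at 24 h, with an adjusted p of 0.043 with the block. At 24 h edgeR and DESeq2 called Mmp9 downregulated (adjusted p 0.0146 and 0.0105). In fits that left out 1 library, Adamts4 at 18 h passed in 6 of 9 and did not pass without 0 h replicate 1, 0 h replicate 3 and 18 h replicate 2 (adjusted p up to 0.0644), Plat at 18 h passed in 6 of 9 and did not pass without 0 h replicate 1, 18 h replicate 2 and 18 h replicate 3 (adjusted p up to 0.0873), Plat at 24 h passed in 6 of 9 and did not pass without 0 h replicate 1, 24 h replicate 2 and 24 h replicate 3 (adjusted p up to 0.0759) and Mmp9 at 18 h passed in 1 of 9, that without 0 h replicate 1 (adjusted p otherwise up to 0.116). Likewise Tns3 at 18 h passed in 4 of 9, those without 0 h replicate 3, 24 h replicate 1, 24 h replicate 2 and 24 h replicate 3 (adjusted p otherwise up to 0.105), and P3h4 at 24 h passed in 4 of 9, those without 0 h replicate 2, 18 h replicate 1, 18 h replicate 2 and 18 h replicate 3 (adjusted p otherwise up to 0.0845).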

How the data were processed

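RNA-seq libraries of 9 samples were used, 3 at each of 0 h, 18 h and 24 h, grouped by their labels. Their protocol text gives other times (24 h and 48 h) than the titles and treatment entries, which were used. The authors prepared stranded libraries of polyadenylated RNA, aligned reads with STAR to GRCm38 and deposited FPKM values, and, for 19210 genes, signal values that are CPM scaled to an effective library size. The submitters' processing notes name cutadapt 1.9 and edgeR 3.16.5. The handling of strand and of multiply aligned reads in counting is not given in the sources used here. The deposited log2 fold-changes, p-values and false discovery rates of the authors' comparisons were not used. Whole reads were recovered from 100% of the filtered values (tolerance 0.01), and no per-sample column was left unmatched.

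The main test was limma 3.58.1 (lmFit, eBayes with trend) in R 4.3.3 on log2(FPKM+0.1) over all 9 libraries without a block, with Benjamini–Hochberg adjustment over 17951 genes. This replaced the count test that the design allowed for raw counts. edgeR 4.0.16 (quasi-likelihood) and DESeq2 1.42.0 were run on the recovered reads. This scale understates the change of low genes. Deviations of libraries with the same replicate number from their group means correlated with r of 0.211 to 0.548 in 9 pairs over 11893 genes, so the numbers pair the libraries, as the labels number them, and counts with the block are given beside those without it, with its adjusted p where it changes a call for which the p without it is printed. Other alternatives were pseudocounts of 1 and 0.01, quantile normalization, centring on library medians, other filters (none, or 1 FPKM), no trend, only the groups compared, other minimum fold-changes and each library left out.

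The members and lists were chosen with earlier results of these data known. The genes named are the called members, the 5 most abundant of each family, laminins and integrins with a mean of at least 1 FPKM, chains of types I, IV, V, VI, IX and XI, called partners and Tcf3. Every other gene was named after its values were seen. The results of 1 member that enters the counts are not reported here. Coordinates are from GENCODE M21 (GRCm38). Tables were handled in Python 3.11.15 and plotted with matplotlib 3.10.9.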

Additional observations from a re-analysis of the deposited data

How the results depend on the processing

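Counts of called members depended on the minimum fold-change and, where there was none, on the replicate block. Without the minimum, the counts that rose were 3 collagens, 2 laminins and 1 integrin at 18 h and 2 collagens, 2 laminins and 2 integrins at 24 h, and those that fell were 3 collagens and 1 integrin at 18 h and 1 collagen, 1 laminin and 1 integrin at 24 h. Without it and with the replicate block, 5 collagens, 4 laminins and 5 integrins rose at 18 h and 6, 3 and 5 at 24 h, while 4, 1 and 1 fell at 18 h and 1, 2 and 1 at 24 h. In the limma fit with the minimum fold-change, the replicate block changed no count of called members and no call of Itga9. Where the minimum size of the log2 fold-change was 2, and at 18 h with a pseudocount of 1, 0 integrins were upregulated. edgeR, DESeq2 and edgeR with the block (this last alternative and the block without a minimum fold-change were added after seeing the data) each called 1 collagen and 1 integrin downregulated at 18 h and 1 laminin downregulated at 24 h. At 24 h edgeR called 1 collagen upregulated (Col9a1) and edgeR with the block 2 (Col9a1 and Col23a1). With a pseudocount of 0.01, 1 laminin was downregulated at 24 h, and leaving out single libraries gave 0 to 1. The median log2 fold-change of laminins at 18 h was 0.080 with a pseudocount of 1, 0.23 with quantile normalization and 0.16 with median centring, and 0.11 to 0.24 without single libraries. At 24 h it was 0.18 over genes with a mean of at least 1 FPKM, 0.11 with quantile normalization and -0.022 with median centring, and 0.0055 to 0.075 without single libraries. The cause was not tested. Beside the block and the libraries left out, other alternatives also ended calls of genes named as risen or fallen. The calls kept, with the highest adjusted p, were at 18 h Col2a1 in 9 of 10 (0.052 with no filter), Col7a1 in 9 of 10 (0.0653 from the compared groups alone), Col9a3 in 7 of 9 (0.101 from the compared groups alone), Itga6 in 8 of 10 (0.0788 from the compared groups alone), Lamb1 in 7 of 10 (0.0934 from the compared groups alone), Nid1 in 8 of 10 (0.0573 from the compared groups alone), Smoc2 in 8 of 9 (0.0536 with a pseudocount of 1), Tns3 in 8 of 10 (0.083 from the compared groups alone), Mmp9 in 7 of 9 (0.0782 from the compared groups alone), Adamts4 in 9 of 10 (0.0685 from the compared groups alone) and Plat in 9 of 10 (0.0665 from the compared groups alone). At 24 h they were Col4a1 in 9 of 10 (0.0577 with no trend), Itga6 in 9 of 10 (0.0558 with no trend), Itgb3 in 7 of 10 (0.087 from the compared groups alone), Lamb1 in 6 of 10 (0.157 with median centring), Lamb3 in 7 of 9 (0.0825 from the compared groups alone), Smoc2 in 8 of 9 (0.0522 from the compared groups alone) and Bcam in 9 of 10 (0.0802 with quantile normalization). Signs changed in members that passed neither limma fit at the time given. Itga3 had 0.056 at 18 h and 0.086 at 24 h with quantile normalization, Lamc1 0.054 at 18 h with it and, at 24 h, -0.061 with median centring and -0.0019 by DESeq2, and Itgb4 -0.050 and -0.054 at 24 h with quantile normalization and median centring. Without single libraries, the ranges that crossed 0 at 18 h were -0.58 to 0.11 for Col1a1, -0.91 to 0.091 for Col1a2, -0.36 to 0.52 for Col4a5, -0.45 to 0.24 for Col4a6, -0.22 to 0.12 for Itga3, -0.41 to 0.0055 for Itgb7 and -0.083 to 0.057 for Lamc1. At 24 h they were -0.26 to 0.36 for Col1a1, -0.64 to 0.36 for Col1a2, -0.20 to 0.65 for Col4a5, -0.093 to 0.68 for Col4a6, -0.31 to 0.023 for Col6a2, -0.22 to 0.11 for Itga3, -0.021 to 0.061 for Itgb4 and -0.065 to 0.075 for Lamc1.

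With 3 libraries at each time, a permutation test of 1 gene cannot give a p below 0.1. Members near 0.1 FPKM rest on few reads: the lowest count on a tested member in a library was 6.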

Other observations

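The 25 members below the filter of 0.1 FPKM were 15 collagens, 2 laminins and 8 integrins, and none exceeded 0.163 FPKM in a library. They include chains of specialised tissues: Col10a1 of hypertrophic cartilage, Col4a3 and Col4a4 of the kidney filter, Lama2 of muscle and Itgax, Itgad, Itgam and Itgb2 of leukocytes. Their means were 0.00147 FPKM for Col10a1, 0.00537 for Col4a3, 0.0093 for Col4a4, 0.0128 for Lama2, 0.00188 for Itgax, 0.00401 for Itgad and 0.091 for Itgb2. Itgam had a mean of 0.0461 FPKM under one of its identifiers and was listed at 0 in every library under the other. Of the 25 genes, 18 are in the filtered table, so reads on them could be recovered, and 1 was listed at 0 in all libraries. The alpha subunit of the platelet and keratinocyte collagen receptor, Itga2, had a mean of 0.0114 FPKM, and the epithelial subunit Itgb6 one of 0.010 FPKM. With Itga1 and Itga10 at 0.521 and 0.217 FPKM, and Itga11 at 0.0735 FPKM, every alpha subunit of the collagen receptors stayed below 1 FPKM on average.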
